A study of Mus musculus and Homo sapiens with 40 samples.

Results

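The regions described here carried acetylation of histone H3 at lysine 27 (H3K27ac) in untreated HPC-7 cells with CEBPA p42, in untreated cells with p30 and in p30 cells given LPS, and had no H3K27ac peak in p42 cells given LPS. The peaks of the 4 pooled H3K27ac lists on chromosomes 1 to 19, X and Y were merged wherever they shared at least 1 bp, which gave 183190 regions, and 12159 of them were chosen by this measured pattern of presence and absence. They are called regions lost only in p42. A peak that fell below the calling threshold and a mark that disappeared cannot be told apart in such lists.

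HPC-7 cells are progenitors of mouse blood grown as a line, and were transduced with p42-ERT2 or p30-ERT2, the full-length or the N-terminally truncated isoform of CEBPA fused to a tamoxifen-responsive estrogen receptor domain. H3K27ac was measured by ChIP-seq in untreated cells and in cells given 100 ng/mL LPS for 2 h, with 3 replicates pooled into each list, so that 4 lists with no replicate check are compared. H3K4me1 was measured in untreated cells from 2 pooled replicates a line, and CEBPA with an anti-CEBPA and an anti-ER antibody from 1 library each. Each isoform was present in 1 transduced line, so isoform and line cannot be told apart. The methods describe treatment with 4-OHT, the ligand of the fusion, before the experiments, which the labels do not name.

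The lists of H3K27ac peaks held 129369 peaks in untreated p42 cells, 107141 in p42 cells with LPS, 139210 in untreated p30 cells and 142419 in p30 cells with LPS. The p42 LPS list, the one that defines absence, was therefore the shortest. All 10 hematopoietic progenitor marker genes had a promoter peak in each of the 4 lists, and of 5 B cell markers 0 did, except for 1 in p30 cells with LPS. Markers of other lineages, with 5 genes each, had one at 2 or 3 erythroid genes, depending on the list, and at 3 megakaryocyte, 2 mast cell and 1 T cell gene in each list.

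H3K27ac is deposited by the acetyltransferases EP300 and CREBBP on nucleosomes beside active promoters and enhancers. H3K4me1 marks enhancers whether or not they are active, so that a distal site with both marks is read as an active enhancer. LPS, a component of the outer membrane of bacteria, acts through the receptor TLR4 on NF-kB, AP-1 and interferon regulatory factors, and CEBPA is a basic leucine zipper factor that binds enhancers of myeloid genes together with PU.1 and RUNX1.

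Sequences of 200 bp are given for the distal members that lead the ranking in the 3 lists in which they were present, because these had the best evidence of H3K27ac, and for 2 members with a p42 CEBPA summit inside them. All are read from the plus strand of GRCm39, the same assembly as mm39. Capitals mark matches on either strand to any of 14 motifs searched, among them CEBP (TTGCNNAA), AP-1 (TGANTCA), CRE (TGACGTCA), PU.1 (GAGGAAGT) and E-box (CAGCTG). The first set holds the 3 best-ranked distal members, centred on the strongest H3K27ac summit. The second holds Chmp4b, a member with a p42 site by both antibodies and none in p30, and Clcn5, the best-ranked member with both antibodies in p42, each centred on the p42 anti-CEBPA summit.
Igh locus, chr12:115916247-115916446: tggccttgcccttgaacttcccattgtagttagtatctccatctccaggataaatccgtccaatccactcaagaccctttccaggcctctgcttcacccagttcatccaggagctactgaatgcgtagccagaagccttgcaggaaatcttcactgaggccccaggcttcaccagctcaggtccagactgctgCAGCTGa
Igh locus, chr12:115368248-115368447: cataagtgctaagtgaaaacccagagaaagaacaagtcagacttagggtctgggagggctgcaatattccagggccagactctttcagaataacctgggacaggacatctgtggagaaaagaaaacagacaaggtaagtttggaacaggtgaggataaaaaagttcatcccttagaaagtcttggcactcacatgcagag
Rapgef6 intron, chr11:54573971-54574170: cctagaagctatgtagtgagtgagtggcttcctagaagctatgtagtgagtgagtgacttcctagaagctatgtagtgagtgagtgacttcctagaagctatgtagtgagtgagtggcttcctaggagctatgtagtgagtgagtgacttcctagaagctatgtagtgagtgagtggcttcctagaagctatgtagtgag
Chmp4b intron, chr2:154509806-154510005: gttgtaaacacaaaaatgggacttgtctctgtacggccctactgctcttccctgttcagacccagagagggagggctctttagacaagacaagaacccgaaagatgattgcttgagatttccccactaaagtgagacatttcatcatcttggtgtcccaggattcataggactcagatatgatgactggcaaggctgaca
Clcn5 intron, chrX:7034875-7035074: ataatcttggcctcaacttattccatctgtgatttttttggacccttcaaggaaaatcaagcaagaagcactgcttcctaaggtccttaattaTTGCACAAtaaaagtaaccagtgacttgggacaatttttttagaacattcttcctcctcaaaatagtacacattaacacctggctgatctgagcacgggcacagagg

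Of the 68810 regions present in the other 3 lists, the 12159 members made up 17.7%, a share that the rule itself sets and from which nothing is read. The mirror class, regions absent only from p30 cells with LPS, held 3207 of 59858, or 5.36%. Regardless of the other line, 37.9% of regions present in untreated p42 cells had no peak in p42 cells with LPS, and 29.3% of those in untreated p30 cells had none in p30 cells with LPS. Another 56651 regions were present in all 4 lists and are called kept, and 7229 were present in both untreated lists and absent from both LPS lists, and are called lost in both lines. With the same number of strongest peaks (107141) taken from each list, 5859 regions were lost only in p42 (10.4%) and 4000 only in p30 (7.38%), so that the gap between the lines was much narrower. Of the 12159 members, 5845 overlapped a region that was also lost only in p42 at equal list length.

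Members were narrow regions with modest enrichment. Their median width was 600 bp (10th to 90th percentile 338 to 1128 bp), against 1464 bp (570 to 4195 bp) for kept regions and 580 bp (331 to 1129 bp) for regions lost only in p30. Fold enrichment, the ratio of ChIP to input at the summit as MACS2 gives it, had a median of 2.94 in untreated p42 cells, 3.06 in untreated p30 cells and 2.92 in p30 cells with LPS. The same medians for kept regions were 5.17, 4.99 and 5.08. Since the rule used these lists, the values describe the members and test nothing.

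Within each list, peaks were ranked by the −log10 of the q-value. The median member ranked at the 65.5th percentile from the top in untreated p42 cells, the 55.4th in untreated p30 cells and the 60.3rd in p30 cells with LPS, whereas the median kept region ranked between the 22.1st and the 24.4th in these lists. In 7741 members (63.7%) the rank was better in untreated p30 than in untreated p42 cells, and the median difference in rank, p30 minus p42, was -8.77 percentile points. Among kept regions the same order held for 59.4%, with a median difference of -0.77 points. In p30 cells 5319 members (43.7%) and 50.9% of kept regions had a better rank in the list with LPS than in the one without. These lists differ in length and were used by the rule, so nothing is read from the order.

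**Figure D1:**
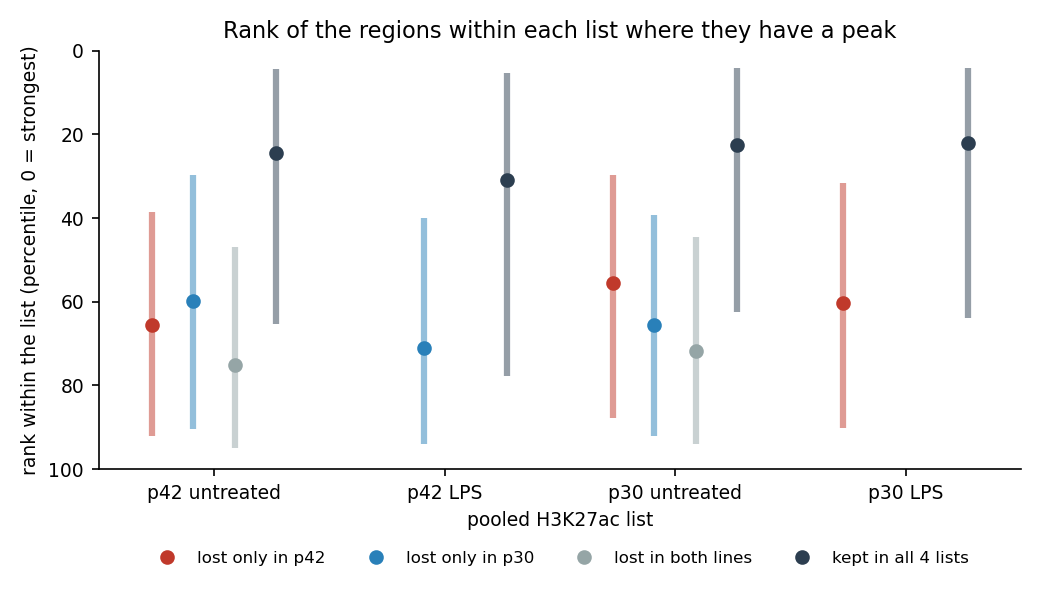
The y axis gives the rank of a region's best peak as a percentile of its list (0 is the strongest), for each pooled H3K27ac list on the x axis; points are medians and bars run from the 10th to the 90th percentile. Regions lost only in p42 (red) lie at medians of 65.5, 55.4 and 60.3 and have no value in p42 LPS, which defines them; kept regions (dark) lie between 22.1 and 31.0.

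The share of regions lost fell steeply with their strength. Strength was taken from lists that the rule used, so the trend describes the regions and tests nothing. When the 68810 regions were split into deciles of fold enrichment in p30 cells with LPS, 3409 of 6881 (49.5%, 95% Wilson interval 48.4 to 50.7) were absent from p42 LPS in the weakest decile. In the fifth decile the count was 1048 of 6881 (15.2%, 14.4 to 16.1), and in the eighth 27 of 6881 (0.392%, 0.270 to 0.570). In the strongest 2 deciles, with fold enrichment above 13.2, the count was 0 of 6881 in each, which allows up to 0.0558%. Loss only in p30, split by fold in p42 LPS, ran from 1052 of 5986 (17.6%, 16.6 to 18.6) in the weakest decile to 25 of 5986 (0.418%) in the eighth and 0 of 5985 in each of the strongest 2. All intervals given here cover counting error over regions only, not the variation between cultures.

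**Figure D2:**
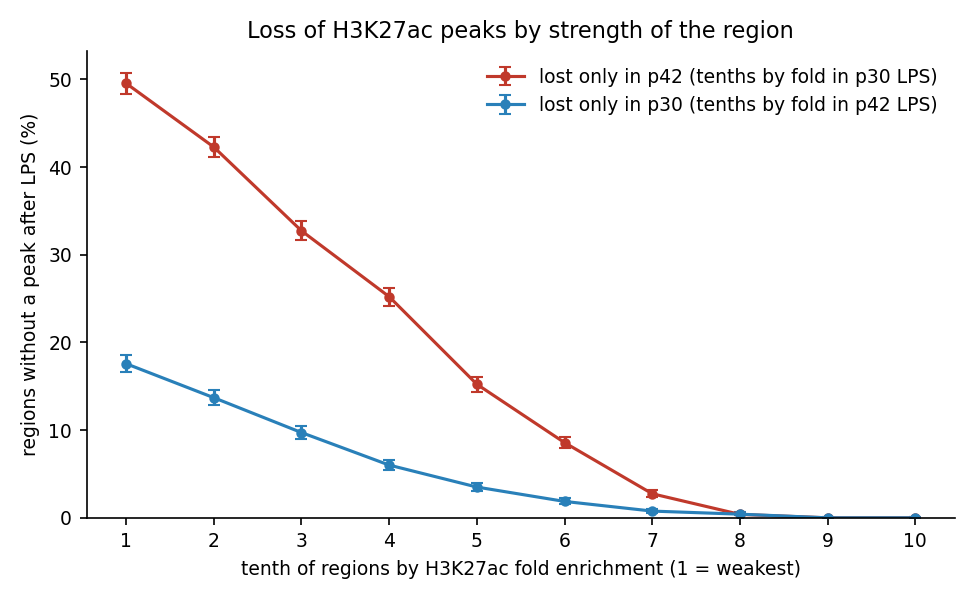
The y axis gives the percentage of regions without a peak after LPS and the x axis the tenth of regions by fold enrichment in the LPS list of the other line (1 is the weakest), with 95% Wilson intervals. Loss only in p42 (red) falls from 49.5% to 0, loss only in p30 (blue) from 17.6% to 0, and p42 lies above p30 from x of 1 to 7.

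Some regions lay at the edge of the rule. The member nearest to a peak of p42 LPS, at Clasrp (chr7:19333315-19333872), touched it without sharing a base, and the next, at Stat4 (chr1:52083442-52084776), lay 1 bp away. Just on the other side, the kept region with the weakest p42 LPS peak, at Fam98a (chr17:75845344-75846068), had a −log10 q of 1.30361 and a fold enrichment of 2.00 there. Of 56651 kept regions, 415 (0.733%) had a best p42 LPS peak with a −log10 q under 2, and 3241 (5.72%) were covered under 25% by p42 LPS peaks. Of the members, 1242 (10.2%) had a −log10 q under 2 in at least 1 of the other 3 lists. That count runs over 3 lists and has no like count for kept regions here, so the 2 are not compared. A −log10 q of at least 5 in all of the other 3 lists was reached by 1997 members (16.4%) and by 42512 kept regions (75.04%).

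Members lay somewhat closer to H3K27ac that remained than other regions without a p42 LPS peak did. The median distance to the nearest p42 LPS peak was 1285 bp, and 3012 members (24.8%) lay within 500 bp and 5243 (43.1%) within 1000 bp of one. Over all 99884 regions absent from p42 LPS the median was 1742 bp with 35.1% within 1000 bp, and for regions lost in both lines it was 1564 bp with 37.2%. At the other end, 1109 members lay more than 10000 bp from any p42 LPS peak. Within that distance lay 90.9% of members, 91.9% of regions lost in both lines and 88.4% of all regions absent from p42 LPS. Regions lost only in p30 were nearer to the p30 LPS peaks, at a median of 834 bp with 1783 of 3207 (55.6%) within 1000 bp, but that list held 142419 peaks against 107141. A kept region was found within 5000 bp of 9028 members (74.2%), of 74.1% of regions lost only in p30, 68.9% of those lost in both lines and 67.5% of all regions other than kept ones. Another member lay within 5000 bp of 4314 members (35.5%), a share with no comparison class here, so nothing is read from it.

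**Figure D3:**
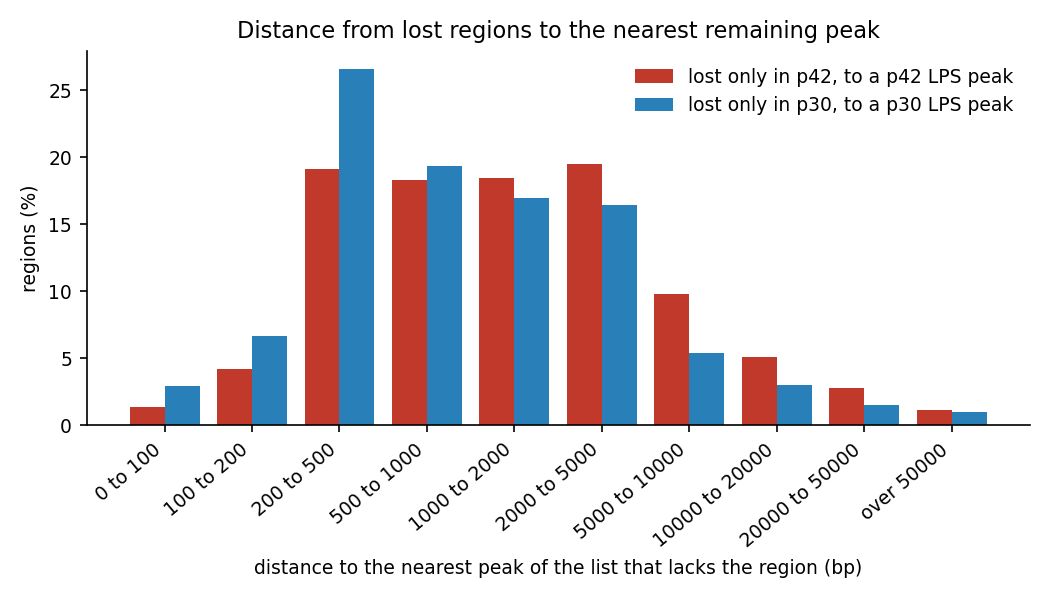
The x axis gives the distance in bp from a lost region to the nearest peak of the list that lacks it and the y axis the percentage of regions. Regions lost only in p42 (red, to p42 LPS peaks) have a median of 1285 bp and regions lost only in p30 (blue, to p30 LPS peaks) one of 834 bp.

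Few members were promoters, as in the other classes that lost the mark. The strongest summit lay within 1000 bp upstream to 100 bp downstream of a protein-coding start site in 697 members (5.73%, 5.33 to 6.16), against 8.78% of all 183190 regions, 15.5% of kept regions, 6.11% (5.33 to 6.99) of regions lost only in p30 and 6.06% (5.53 to 6.63) of those lost in both lines. In the weakest tercile of fold enrichment in p30 LPS (up to 3.43), which held 9198 of the members, the gap was small, with 6.01% (5.54 to 6.52) of members and 6.81% (6.40 to 7.24) of kept regions. Introns of protein-coding genes held 7893 members (64.9%, 64.1 to 65.8), 57.5% of all regions and 50.1% of kept regions, and in the weakest tercile 66.3% of members and 64.4% of kept regions. They also held 2021 of the 3207 regions lost only in p30. Exons held 1841 members (15.1%) and 14.6% of all regions, and 1728 members (14.2%) lay outside protein-coding genes, where 19.1% of all and 20.2% of kept regions lay. The promoters among the members had a low CpG content, with a median observed to expected ratio of 0.222 in the 1000 bp around the summit against 0.653 at kept promoters. The ratio was 0.208 at promoters lost only in p30, 0.210 at those lost in both lines and 0.322 at all promoter regions. A low ratio was thus not particular to the members. Of 649 genes with a member as promoter region, 226 had no kept region at any promoter, a count with no comparison class here, so nothing is read from it.

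H3K4me1, which the rule did not use, was less frequent at members than at kept regions in both lines. In p42 cells 4172 members (34.3%, 33.5 to 35.2) overlapped an H3K4me1 peak, against 64.1% of kept regions and 36.4% of all regions. In p30 cells the count was 5288 (43.5%, 42.6 to 44.4), against 68.7% of kept and 42.8% of all regions. Hence members were near the level of all regions and below the kept ones. No H3K4me1 in either line was found at 6273 members (51.6%, 50.7 to 52.5), at 51.7% of all regions, the same level, at 25.8% of kept regions and at 74.3% (73.2 to 75.3) of regions lost in both lines. Of the 3207 regions lost only in p30, 1036 had H3K4me1 in p42 cells, 938 in p30 cells and 1945 in neither line. A share below that of kept regions was thus not particular to the members. In the weakest tercile of fold, H3K4me1 in p42 cells was found at 29.5% of members and 44.4% of kept regions.

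The 2 lines differed in which class carried the mark. H3K4me1 was present in p30 only at 1714 members (14.1%, 13.5 to 14.7) and in p42 only at 598 (4.92%, 4.55 to 5.32). Among regions lost only in p30 the order was the opposite, 226 (7.05%, 6.21 to 7.99) in p30 only and 324 (10.1%, 9.11 to 11.2) in p42 only. Both H3K4me1 lists were made from cells without LPS, and the p30 list was the longer one (168035 against 134658 peaks). Over all regions 11.8% had the mark in p30 only and 5.45% in p42 only, so the members' share in p30 only was above that background and their share in p42 only close to it.

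CEBPA was rare at the members, with both antibodies and in both lines, and about as rare at regions lost in both lines. The anti-CEBPA antibody gave a peak at 200 members in p42 cells (1.64%, 1.43 to 1.89), against 6.74% of all regions, 15.5% of kept regions and 9.07% (8.13 to 10.1) of regions lost only in p30. In p30 cells it gave one at 168 members (1.38%, 1.19 to 1.61), against 5.41% of all regions, 13.6% of kept regions and 5.02% (4.32 to 5.83) of those lost only in p30. No interval of the members overlapped that of another of these classes. Regions lost in both lines were at the members' level, with 118 of 7229 (1.63%, 1.36 to 1.95) in p42 and 87 (1.20%, 0.977 to 1.48) in p30 cells, so that its scarcity by this antibody was not particular to loss only in p42.

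The anti-ER antibody, raised against the receptor part of the fusion, gave the same order. In p42 cells 125 members had an anti-ER peak (1.03%, 0.864 to 1.22), against 6.54% of all regions, 16.4% of kept regions and 8.51% (7.60 to 9.53) of regions lost only in p30. In p30 cells 299 members had one (2.46%, 2.2 to 2.75), against 8.86% of all regions, 22.5% of kept regions and 8.36% (7.45 to 9.37) of those lost only in p30. A peak in any of these 4 CEBPA lists overlapped 407 members (3.35%, 3.04 to 3.68), 405 regions lost only in p30 (12.6%, 11.5 to 13.8) and 25.6% of kept regions. Among regions lost in both lines, anti-ER peaks were found at 81 (1.12%, 0.902 to 1.39) in p42 and at 115 (1.59%, 1.33 to 1.91) in p30 cells, the latter below the members, and a peak in any of the 4 lists at 191 (2.64%, 2.30 to 3.04). The members and the regions lost only in p30 had similar median widths and similar median folds in untreated cells (2.94 and 3.08 in p42, 3.06 and 2.89 in p30). They differed among strong regions. The strongest 25% of the untreated p42 list held 0.64% of members and 6.30% of regions lost only in p30, and that of the untreated p30 list 4.99% and 0.59%. Regions lost only in p30 were also by definition present in p42 cells with LPS.

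**Figure D4:**
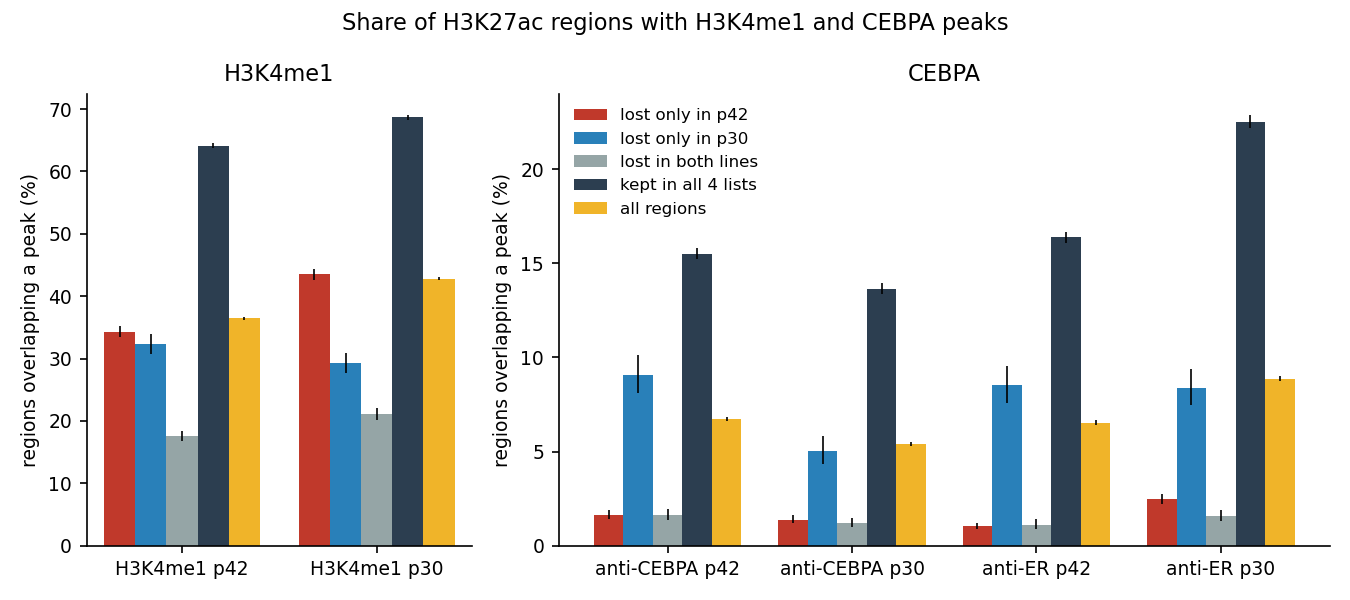
The y axes give the percentage of regions that overlap a peak of each H3K4me1 list (left) or CEBPA list (right) on the x axis, in 5 classes of H3K27ac regions with 95% Wilson intervals. In the 4 CEBPA lists regions lost only in p42 (red) lie between 1.03% and 2.46%, below those lost only in p30 (blue, 5.02% to 9.07%) and the kept ones (dark, 13.6% to 22.5%).

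The lower share of CEBPA than at kept regions held among regions of like strength, width and mark. In the weakest tercile of fold in p30 LPS, p42 anti-CEBPA peaks overlapped 152 of 9198 members (1.65%) and 1041 of 13678 kept regions (7.61%). In the middle tercile (up to 6.56) they overlapped 48 of 2906 members (1.65%) and 2467 of 20091 kept regions (12.3%). The strongest tercile held 55 members, and 0 of them had such a peak. Among regions 400 to 800 bp wide, a band chosen after the data were seen, the shares were 1.61% (1.33 to 1.94) of 6413 members, 5.88% (4.86 to 7.08) of 1736 regions lost only in p30, 1.87% (1.46 to 2.39) of 3316 lost in both lines and 5.44% (5.02 to 5.89) of 10559 kept regions. Among distal regions with H3K4me1 in both lines they were 2.76% (2.26 to 3.36) of 3448 members, 16.9% (14.2 to 19.8) of 688 regions lost only in p30, 3.74% (2.69 to 5.18) of 909 lost in both lines and 20.5% (20.0 to 21.0) of 28865 kept regions.

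Read the other way, regions with CEBPA were seldom lost only in p42. Of 8982 regions with a p42 anti-CEBPA peak that were present in the other 3 lists, 200 (2.23%) were members, against the 17.7% of all such regions. With p42 anti-ER peaks it was 125 of 9396 (1.33%), and with p30 anti-ER peaks 299 of 13058 (2.29%). Loss only in p30 took 291 of 9073 regions with a p42 anti-CEBPA peak (3.21%) against its 5.36%. Of regions with a peak in any of the 4 CEBPA lists, 407 of 14928 (2.73%) were lost only in p42 and 405 of 14926 (2.71%) only in p30. In the weakest tercile of fold in p30 LPS, 152 of 1193 regions with a p42 anti-CEBPA peak (12.7%) were members, against 40.2% of all regions there. The few CEBPA sites in members were also weaker sites of their lists, since the 108 p42 anti-CEBPA summits within members ranked at a median of the 62.1st percentile, the 53 within regions lost in both lines at the 56.0th and the 9019 within kept regions at the 44.6th.

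CEBPA sites were also farther from members than from kept regions. The median distance from a member to the nearest p42 anti-CEBPA peak was 13643 bp, against 9081 bp for kept regions, 9581 bp for regions lost only in p30, 14260 bp for those lost in both lines and 11498 bp for all regions. To the nearest p30 anti-ER peak it was 12284 bp, against 6628, 9835, 14431 and 10234 bp for the same classes.

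In sequence, distal members carried slightly fewer CEBP motifs than kept regions and those lost only in p30. The motif was found within 1000 bp around the summit in 3616 of 11462 distal members (31.5%, 30.7 to 32.4), in 33.8% of all distal regions, 34.9% of kept ones, 38.9% (37.2 to 40.7) of those lost only in p30 and 32.5% (31.4 to 33.7) of those lost in both lines, whose interval overlaps that of the members. Within terciles of GC content the members stood at 36.4%, 31.7% and 25.2% from the lowest to the highest, and kept regions at 41.8%, 36.2% and 27.3%. The differences were a few percentage points, much smaller than those in measured CEBPA binding.

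The motif of AP-1, the FOS and JUN family, was found in 2979 distal members (26.0%, 25.2 to 26.8), against 27.8% of all distal regions and 29.4% (29.0 to 29.8) of kept ones. It was found in 24.8% (23.8 to 25.8) of distal regions lost in both lines and 29.2% (27.6 to 30.8) of those lost only in p30. The same letters read backwards (ACTNAGT), with the same base composition, were found in 26.2% of members, 25.5% of all and 24.7% of kept regions. The CRE motif was present in 66 members (0.576%, 0.453 to 0.732), against 0.832% of all and 1.14% of kept regions, and in the weakest tercile of fold in 0.590% (0.449 to 0.775) of members and 0.675% (0.547 to 0.832) of kept regions. In distal regions lost only in p30 it was present in 0.697%, and in those lost in both lines in 0.633%, near the members' level. The NF-kB motif was present in 11.1% of members, 11.9% of all and 13.5% of kept regions.

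Of the motifs of hematopoietic factors, PU.1 was found in 1110 distal members (9.68%, 9.16 to 10.2), against 9.48% of all distal regions, 13.9% of kept ones and 7.84% (6.93 to 8.85) of those lost only in p30. In the weakest tercile of fold in p30 LPS, members and kept regions stood at 8.56% and 8.68% for PU.1. RUNX was found in 9.15% of members and 8.89% of all, and GATA in 4.39% and 4.49%. Motifs of promoters were less frequent in distal members than in kept regions, with KLF/SP in 2.49% against 3.39% of all and 5.77% of kept regions, and ETS (CCGGAAGT) in 0.872% against 1.18% and 2.12%. In the weakest tercile these gaps were gone or small, with 2.31% of both members and kept regions for KLF/SP, and 0.740% (0.580 to 0.944) of members and 0.863% (0.717 to 1.04) of kept regions for ETS. ETS was found in 0.864% of all distal regions lost only in p30 and 0.869% of those lost in both lines, near the 0.872% of members.

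The best-ranked members, by the worst of their 3 ranks, included regions in repeated sequence and in the immunoglobulin heavy chain (Igh) locus. The first was at the promoter of Zmynd19 (chr2:24839158-24839555), with fold enrichments of 7.27 in untreated p42, 7.22 in untreated p30 and 6.73 in p30 LPS cells, and with a p42 LPS peak 241 bp away. No member was within the strongest 18% of all 3 lists. Of the first 10, 4 lay in the Igh locus on chromosome 12, where protein-coding annotation is sparse and the nearest coding start site was that of Zfp386.

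One Igh member (chr12:115916220-115916808) covered the variable segment Ighv1-82 and had fold enrichments of 7.13, 9.06 and 6.85 in the same order, with a peak of H3K4me1 in both lines and a p30 anti-ER peak. Another (chr12:115031235-115032003) at Ighv8-5 had values of 3.03, 4.86 and 3.83. Their nearest p42 LPS peaks were 26254 and 50326 bp away. Over the whole locus (chr12:113218450-115973713, 233 annotated segments) 23 of 94 regions present in the other 3 lists were members (24.5%, 16.9 to 34.0), an interval that includes the 17.7% over all regions. Loss only in p30 took 8 of 79 regions there (10.1%, 5.22 to 18.7), against 5.36%.

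The Rapgef6 member (chr11:54573935-54574573) had fold enrichments of 6.57, 7.22 and 6.38, and the printed window was 98.2% identical to itself when shifted by 90 bp, so that it is a tandem repeat. The remaining named members were an intronic region of Sfi1 of 182 bp (2.79, 3.47 and 3.28), one in Dnm3 (6.54, 6.11 and 4.98) and an intergenic one of 190 bp whose nearest coding gene, Slc39a10, was 1163520 bp away (6.01, 5.91 and 5.91). Reads in repeats can be placed at several copies, and their part in these values was not tested.

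The Clcn5 member (chrX:7034741-7035273), in an intron of a chloride transporter gene, was the only one of these 10 with CEBPA by both antibodies in both lines. Its H3K27ac fold enrichments were 6.43, 8.01 and 6.26, and its nearest p42 LPS peak was 19436 bp away. Its p42 anti-CEBPA peak had a fold enrichment of 13.4 and its anti-ER peak one of 6.72, and the printed window holds the CEBP match TTGCACAA. Among all members, 88 had a p42 site by both antibodies, and 2 of these had none in p30. The count of 2 is given only to name the regions, and nothing is read from it. These 2 were regions of Paxip1 (chr5:27949775-27950230) and Chmp4b (chr2:154509762-154510166), with H3K27ac fold enrichments of 3.22 and 3.49 in untreated p42 cells and p42 anti-CEBPA ones of 6.72 and 6.16. The anti-CEBPA summit of the Paxip1 region lay beyond its end, and its sequence is not shown. The printed Chmp4b window holds no CEBP match.

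Members were spread over many genes. Of 21738 protein-coding genes, 5358 had the start site nearest to at least 1 member, 2735 of them to only 1, and 89 to 10 or more. Trappc9, a subunit of a vesicle tethering complex, had the most, with 29 members of 65 regions present in the other 3 lists (44.6%, 33.2 to 56.7). Loss only in p30 took 0 of 36 regions at Trappc9, a count that leaves out its members. Next were the spindle checkpoint gene Mad1l1 with 25 of 53 and the drug exporter Abcc1 with 21 of 42. Svil, an actin-binding protein, had 21 of 54, and the chromatin remodeler subunit Arid1b 19 of 67.

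Med13l, of the Mediator kinase module, had 19 of 81 and the homeobox gene Cux1 18 of 80. The microtubule-associated Eml4 had 18 of 61 and Zfp386, through the Igh locus, 18 of 81. The progenitor transcription factor Sox4 had 18 of 53 (34.0%, 22.7 to 47.4). Loss only in p30 took 1 of 36 regions at Sox4, a count that leaves out its members. Genes with many regions have more members by number alone, and 8 of these 10 genes were longer than 100 kb.

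By gene list, members were seldom nearest to genes of the inflammatory response, although the low shares depended in part on how regions were assigned to genes. Cytokine and chemokine genes had 5 members among 132 regions (3.79%, 1.63 to 8.56), of which 2 were nearest to Il12a. Interferon-stimulated genes had 5 of 81 (6.17%, 2.67 to 13.6), one of them at the promoter of Stat2, a transducer of interferon signals. Neutrophil granule and effector genes had 4 of 64 (6.25%, 2.46 to 15.0), with a promoter member at Ltf, which encodes lactoferrin. All these shares lay below the 17.7% over all genes, and the median fold enrichment of these lists' regions in p30 LPS was higher, at 5.64, 7.80 and 5.26 against 4.25 over all genes. Within the weakest tercile of fold the cytokine list stood at 5 of 20 (25%, 11.2 to 46.9) against 40.2% over all genes, an interval that includes the latter. There the interferon-stimulated list stood at 4 of 13 (30.8%, 12.7 to 57.6) and the neutrophil list at 3 of 16 (18.8%, 6.59 to 43.0). These intervals also include 40.2%. When all regions within 50 kb of a gene were counted, the shares were 7.72% (5.15 to 11.4) for cytokines and chemokines, 13.3% (9.46 to 18.3) for interferon-stimulated and 13.8% (10.1 to 18.6) for neutrophil genes, and the last 2 intervals include 17.7%.

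For NF-kB subunits and inhibitors 13 of 138 regions (9.42%, 5.59 to 15.5) were members, of which 3 each were nearest to the kinase gene Ikbkb and to Nfkb1. The AP-1 family had 14 of 116 (12.1%, 7.33 to 19.2), with 4 of 7 at Atf2 and 3 of 12 at the stress-induced Atf3, and none at a promoter. In the weakest tercile of fold the NF-kB list stood at 10 of 28 (35.7%, 20.7 to 54.2) and the AP-1 list at 11 of 25 (44%, 26.7 to 62.9). Both intervals include the 40.2% over all genes. In the genes of LPS reception and Toll-like signalling the share was 24 of 146 (16.4%, 11.3 to 23.3), close to that of all genes, with 8 of 38 at the adaptor Tab2, one of them at the promoter. Immediate early and MAPK phosphatase genes had 38 of 298 (12.8%, 9.43 to 17), of which 14 were nearest to the MAPK inhibitor Spred1.

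Within 50 kb of Fos, Cxcl10 and Cebpb there were 11, 4 and 12 regions present in the other 3 lists, and 0 of them were members. Around Gadd45a, a growth arrest gene, 1 of 15 was. Stress and growth arrest genes as a list had 21 members of 198 regions (10.6%, 7.04 to 15.7), led by Ern1, the sensor of unfolded proteins, with 5 of 24.

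Genes of stem and progenitor cells had 71 members among 590 regions (12%, 9.65 to 14.9), led by Sox4 and by the homeobox gene Meis1 with 10 of 33. In the weakest tercile of fold this list stood at 40 of 144 (27.8%, 21.1 to 35.6), an interval below the 40.2% over all genes. Runx1 had 4 of 82, one of them at a promoter, and 8 of 86 lost only in p30. Myeloid transcription factors had 23 of 220 (10.5%, 7.07 to 15.2), with 5 of 27 at Trib1 and 4 of 26 at Id2. Growth factor receptor and signalling genes had 44 of 379 (11.6%, 8.76 to 15.2), of which 15 of 40 were nearest to the kinase gene Jak1. Promoters were among them at Jak1, Stat5a and the interleukin 1 receptor gene Il1r1.

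Genes of histone acetylation and chromatin were, by nearest gene, the only one of the 17 lists above the share of all genes, with 103 members of 458 regions (22.5%, 18.9 to 26.5) at 25 of 32 genes. Counted within 50 kb, its share was 20.1% (17.4 to 23.1), and those of ribosomal protein genes (18%, 14.5 to 22.1) and lymphoid genes (17.9%, 12.3 to 25.3) also passed 17.7%, with intervals that include it in all 3 lists. Besides Arid1b they included the methyltransferase Kmt2a with 6 of 20, the deacetylase Hdac3 with 4 of 7 and the acetyltransferase Crebbp with 3 of 15, the last 3 with 1 promoter member each. The same list had 32 of 387 regions lost only in p30 (8.27%) against 5.36% over all genes, and its regions were the weakest of the lists, with a median fold of 3.47. Within the weakest tercile of fold its share was 85 of 213 (39.9%, 33.6 to 46.6), against 9198 of 22876 (40.2%) over all genes.

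Among the other lists, genes of DNA replication had 31 members of 247 regions (12.6%), of which 10 of 61 were nearest to Cdk6. Ribosomal protein genes had 11 of 87 (12.6%), mast cell and basophil genes 11 of 130 (8.46%) with 5 of 57 at Kit, and erythroid and megakaryocyte genes 10 of 77 (13%), one of them the promoter of Gata1. B and T lymphoid genes had 4 of 30 (13.3%).

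**Figure D5:**
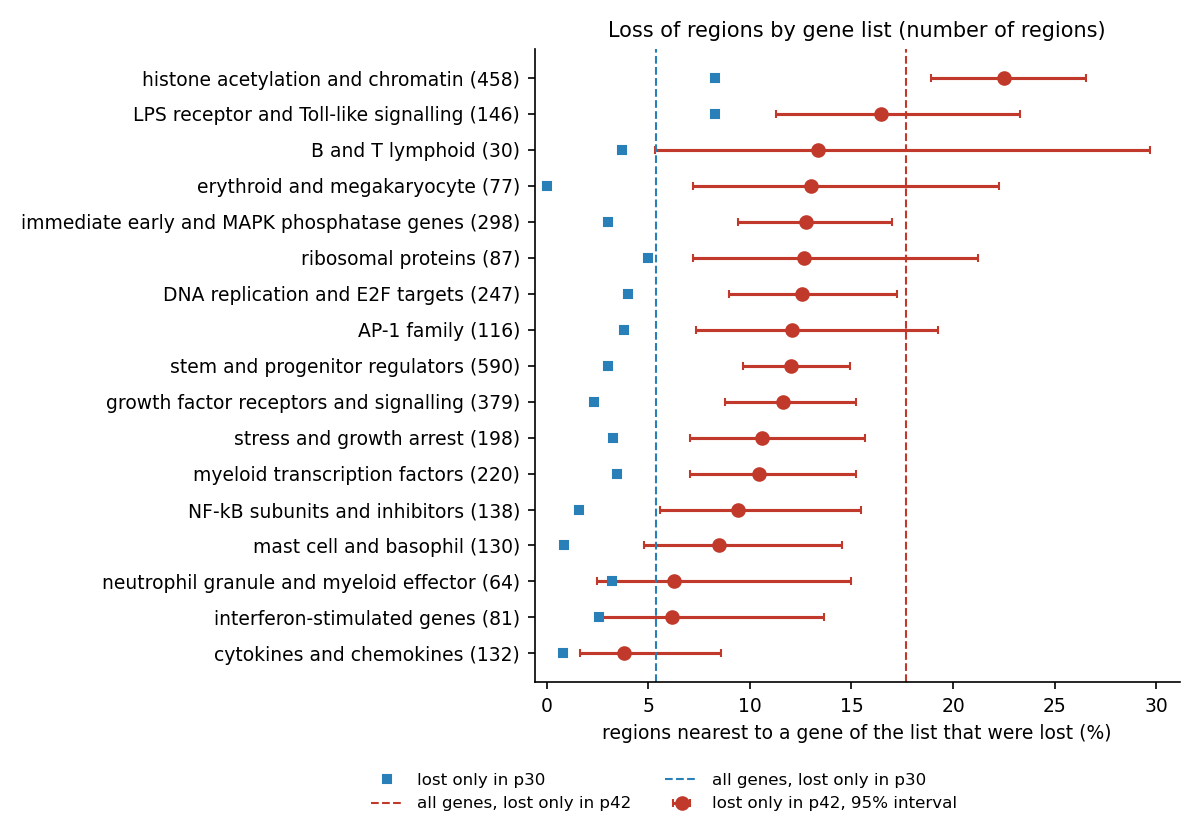
The x axis gives the percentage of regions nearest to a gene of each list (y axis, with the number of regions) that were lost; red points with 95% Wilson intervals are loss only in p42, blue squares loss only in p30, and dashed lines the shares over all genes, 17.7% and 5.36%. The list of cytokines and chemokines lies lowest at 3.79% and that of histone acetylation and chromatin highest at 22.5%.

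By chromosome, the share of members ran from 14.0% on chromosome 17 to 20.0% on chromosome 5 among the autosomes. On chromosome X it was 101 of 964 (10.5%, 8.70 to 12.6), and loss only in p30 was 15 of 878 there (1.71%, 1.04 to 2.80). The regions of chromosome X were also stronger, with a median fold in p30 LPS of 7.38 against 4.25 over all regions. On chromosome Y, 1 of 17 regions was a member.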

How the data were processed

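Per the labels and the study's methods, the authors trimmed reads with Trim Galore 0.6.6, aligned them to mm39 with Bowtie2, removed duplicates with Picard and called peaks with MACS2 against input on pooled replicates. The deposited lists hold, for each peak, the fold enrichment at the summit (a ratio of ChIP to input) and the −log10 q-value; the lists reach down to a q of 0.05, and the study gives one range of read depth for all samples and not the depth of each library. The names of the anti-CEBPA lists lack a mark for a skipped fragment model that the others carry, and the human ATF4 list of the series was not used.

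From these lists regions were merged (at least 1 bp shared), classified by presence and annotated with GENCODE M39 on GRCm39, using protein-coding start sites. The summit of a region is that of its best-ranked peak. Of 15 motifs, 1 was AP-1 read backwards. Members and lists were chosen with earlier results of these data known. Named were the 10 best-ranked members, members with p42 CEBPA by both antibodies only, the 10 genes with the most members, genes of fixed lists with a promoter member or the most members in their list, and 4 loci. The Clcn5 sequence and the genes Atf3, Id2, Meis1 and Nfkb1 were added after their values were seen. Some genes that the rules select are not reported here. Since replicates were pooled, shares carry Wilson intervals (95%) and no test was run. Python 3.11.15, numpy 2.4.6 and pandas 2.3.3 were used, and the interval code was tested on simulated data.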

Additional observations from a re-analysis of the deposited data

Results flagged for a closer look

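The number of pooled H3K27ac peaks moved in opposite directions with LPS, by -17.2% in p42 cells and by 2.31% in p30 cells. Each value comes from 1 pair of pooled lists, so the difference was not tested. The p42 LPS list is the one that regions lost only in p42 are absent from, and with equal list lengths 5859 regions were lost only in p42 and 4000 only in p30. The part of list length in the larger number of regions lost in p42 beyond that comparison was not tested.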

How the results depend on the processing

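The lists pool replicates, so leaving out each replicate could not be done, the depth of each library is not given in the sources used here (the study states one range for all samples), and no threshold of a test can be given. No paired analysis was possible because the lists carry no replicate numbers and no result comes from a test. All 57 differences in share between members and kept regions under the alternatives kept their direction. The number of members depended strongly on the definition, and the values that moved beyond their counting interval, or for counts beyond 1.5 times, were as follows. Differences are in percentage points, members minus kept, in the order promoter, H3K4me1 p42 and p30, anti-CEBPA p42 and p30, anti-ER p42 and p30 where all are given.

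With lists cut to equal length there were 5859 members (10.4%), with median folds of 3.22 (p42 untreated), 3.41 (p30 untreated) and 3.19 (p30 LPS), and differences of -11.2, -25.8, -20.4, -14.7, -13, -16.4 and -21.3. With q under 1e-05 in all lists there were 5805 members (13%) and 1688 regions lost only in p30, median folds of 3.63, 3.81 and 3.66, differences of -14.2, -18.9, -14.7, -17.0, -15.1, -19.1 and -24.3, and one of -4.71 for the AP-1 motif. With q under 1e-05 for presence alone there were 1997 members (4.49%) and 312 regions lost only in p30, median folds of 3.56, 3.81 and 3.61, and differences of -14.9, -23.6, -18.3, -18.1, -15.8, -19.8 and -25.1.

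With absence requiring no peak within 1000 bp there were 6916 members (10.1%) and 1424 regions lost only in p30, a median fold of 3.15 in untreated p30, and differences of -33.1 and -26.9 for H3K4me1 in p42 and p30 and -19.4 for anti-ER in p30. With presence requiring 25% coverage the members made up 21.0%, with median folds of 3.08 (p42 untreated) and 3.15 (p30 untreated), and differences of -10.6 (promoter), -28.3 and -23.9 (H3K4me1), -12.6 (anti-CEBPA p30) and -15.8 and -20.7 (anti-ER). Promoters within 2500 bp gave -11.9, and a motif window of 500 bp gave -2.13 for CEBP and -2.15 for AP-1. In regions of 400 to 800 bp only, an alternative chosen after seeing the data, the differences were smaller, at -4.52, -10.5, -6.48, -3.83, -3.28, -3.70 and -5.07, and -2.10 for the CEBP motif. With regions within 50 kb of gene bodies, the share became 9.61% for stem and progenitor regulators and 15.9% for myeloid transcription factors, outside their first intervals. The other 15 stayed within intervals that were wide for short lists, and 3 of these moved by over 1.5 times, to 7.72% for cytokines and chemokines, 13.3% for interferon-stimulated and 13.8% for neutrophil genes.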

Other observations

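Among the 1807 protein-coding genes with at least 10 regions present in the other 3 lists, 172 had no member and 38 (2.10%) had lost 50% or more of these regions only in p42. Among the genes with the highest shares, chosen after their values were seen, were Atp2a3, a calcium pump of the endoplasmic reticulum, and the RNA-binding protein gene Khdrbs1 with 7 of 11 each, and the deubiquitinase gene Usp7 with 12 of 19. Emid1 and the nuclear pore gene Nup205 had 6 of 10 each, and the Mediator kinase Cdk8 was also among the first 10, with 7 of 12. Loss only in p30 took 0 of 4 regions each at Atp2a3, Emid1 and Nup205, 1 of 5 at Khdrbs1, 1 of 8 at Usp7 and 1 of 6 at Cdk8. These counts leave out the members and are too small to compare the lines. With 10 to 19 regions a gene, the intervals are wide, for example 41.0 to 80.9% for Usp7.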
